A study of Homo sapiens with 14 samples.

Results

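The regions described here are sites where the SS18::SSX fusion was called at 12, 24 and 48 h of exposure to the BRD9 degrader WA-68 and was not called in cells given the vehicle DMSO. The series profiled HS-SY-II, an established synovial sarcoma cell line whose genotype the labels give as WT, by chromatin immunoprecipitation and sequencing (ChIP-seq). An anti-HA antibody recognised the HA-tagged fusion after 12, 24 and 48 h of 100 nM WA-68 and in DMSO, and an antibody to GLTSCR1 was used after 12, 24, 48 and 96 h of 100 nM WA-68 and in DMSO. Each of these 9 groups held 1 library, no time is given for DMSO, and the 5 input libraries were not analysed here, so a difference between lists has no replicate check and no p-value is given. Time in culture and time in WA-68 cannot be told apart. The peak lists hold no expression values against which to check the cell line, and no read depth.

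Members were regions of the 12 h fusion list on chromosomes 1 to 22, X and Y that overlapped no DMSO fusion region and overlapped by at least 1 bp a region in both the 24 h and the 48 h fusion lists. They numbered 1516 of the 28619 regions of that list, a share of 5.30%, and of 183499 regions in all 9 lists. Members were thus chosen by the presence and absence of fusion calls, and their fusion folds, widths and calls are given as a description with no test. The GLTSCR1 lists took no part in the choice.

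SS18::SSX joins the SS18 subunit of BAF chromatin remodelling complexes to the end of an SSX protein, and it is the driver oncoprotein of synovial sarcoma. SS18 and BRD9 both belong to GBAF, the form of the complex that also holds GLTSCR1. WA-68 is a PROTAC, a bifunctional molecule that brings BRD9 to a ubiquitin ligase so that the proteasome destroys it. The SSX part of the fusion is known to bind chromatin that carries Polycomb-type histone H2A ubiquitination, which is common at unmethylated CpG-rich promoters of developmental genes.

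A promoter sequence could be shown for the members at gene starts. RefSeq's GRCh38.p14 promoter table, which runs from 250 bases before to 50 after a start, matched 15843 of 20037 protein-coding genes with 22199 promoters. A total of 49 members overlapped 57 of these promoters, of 48 genes. The sequences below are the whole promoters overlapped by the 4 highest-ranked such members. The promoter of the highest-ranked such member with GLTSCR1 in all 5 lists was added after its values were seen. Of the 300 bases printed, the member covered 51 at PPP2R2C, 158 at LOC124900276, 300 at NKX2-8, 286 at ROBO3 and 80 at NR3C1. Capitals mark CG dinucleotides, the targets of DNA methylation, and each run is written 5′ to 3′ on the gene's strand.
PPP2R2C: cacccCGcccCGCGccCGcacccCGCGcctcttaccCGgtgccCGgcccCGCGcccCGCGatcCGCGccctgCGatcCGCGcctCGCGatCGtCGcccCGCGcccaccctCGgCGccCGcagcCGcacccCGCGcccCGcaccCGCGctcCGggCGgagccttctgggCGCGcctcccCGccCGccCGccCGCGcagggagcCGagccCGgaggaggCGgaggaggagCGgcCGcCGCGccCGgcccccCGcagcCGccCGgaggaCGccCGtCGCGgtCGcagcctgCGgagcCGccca
LOC124900276: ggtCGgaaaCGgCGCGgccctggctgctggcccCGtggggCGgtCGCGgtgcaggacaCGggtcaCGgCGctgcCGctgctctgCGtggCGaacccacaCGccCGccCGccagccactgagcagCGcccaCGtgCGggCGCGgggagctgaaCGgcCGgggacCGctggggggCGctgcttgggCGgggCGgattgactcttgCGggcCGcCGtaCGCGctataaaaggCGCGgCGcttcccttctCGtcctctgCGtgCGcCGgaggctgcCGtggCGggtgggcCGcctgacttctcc
NKX2-8: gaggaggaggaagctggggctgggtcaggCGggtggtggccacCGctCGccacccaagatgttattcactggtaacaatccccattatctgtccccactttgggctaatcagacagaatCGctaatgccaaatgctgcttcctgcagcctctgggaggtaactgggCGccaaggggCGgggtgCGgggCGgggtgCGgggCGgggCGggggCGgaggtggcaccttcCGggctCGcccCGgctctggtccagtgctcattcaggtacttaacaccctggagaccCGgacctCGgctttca
ROBO3: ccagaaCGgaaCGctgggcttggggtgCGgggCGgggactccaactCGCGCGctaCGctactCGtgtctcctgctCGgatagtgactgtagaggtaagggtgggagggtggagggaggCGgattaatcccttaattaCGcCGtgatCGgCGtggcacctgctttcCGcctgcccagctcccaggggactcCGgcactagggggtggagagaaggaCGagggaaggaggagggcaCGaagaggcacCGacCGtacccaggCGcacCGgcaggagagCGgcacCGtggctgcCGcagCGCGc
NR3C1: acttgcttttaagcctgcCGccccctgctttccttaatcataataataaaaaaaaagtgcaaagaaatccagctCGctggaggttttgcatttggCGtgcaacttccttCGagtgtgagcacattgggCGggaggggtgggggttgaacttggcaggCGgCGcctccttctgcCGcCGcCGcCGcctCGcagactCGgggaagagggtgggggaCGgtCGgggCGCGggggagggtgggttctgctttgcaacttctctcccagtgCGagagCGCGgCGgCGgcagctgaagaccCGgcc
PPP2R2C, a regulatory subunit gene of the phosphatase PP2A, has its promoter at chr4:6563750-6564049 on the minus strand, with 59 CG dinucleotides in 300 bases. LOC124900276, a RefSeq protein-coding locus, lies at chr9:136728135-136728434 on the minus strand and holds 43. NKX2-8, a homeodomain factor gene, lies at chr14:36582565-36582864 on the minus strand and holds 17. ROBO3, an axon guidance receptor gene, lies at chr11:124865182-124865481 on the plus strand and holds 28. The promoter of NR3C1, the glucocorticoid receptor gene, lies at chr5:143404433-143404732 on the minus strand and holds 23.

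Promoters touched by a gained region, by as few as 4 bases at INSIG1, were rich in CG dinucleotides over their whole length. Their median was 33 per 300 bases, against 27 in 1061 promoters under 12 h regions called in all 4 fusion lists and 21 in all 22199 promoters. The motif GGGCGG, the letters bound by SP and KLF factors, was present on either strand in 48 of 57 (84.2%), against 72.0% and 56.3%. The TATA-box letters TATAAA were in 14.0%, against 8.95% and 9.47%, and the NF-Y letters CCAAT in 24.6%, against 28.4% and 34.7%. The E-box CANNTG was in 54.4%, against 61.0% and 65.1%. The AP-1 letters TGANTCA were in 1 of 57 (1.75%), against 4.62% and 6.15%, and the TEAD letters CATTCC in 3 of 57 (5.26%), against 10.7% and 12.2%. Exact 95% intervals for 57 promoters are wide, for example 72.1 to 92.5% for GGGCGG, and promoters of 1 gene share sequence. A GGGCGG match holds a CG and so moves with the CG count.

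Gained regions were narrow and of modest strength. Their summit fold enrichment in the 12 h list, a linear ratio over local background given by the authors' peak caller, ran from 2.07 to 9.56 with a median of 4.24. The rest of the 12 h list had a median of 4.55, and the 12951 regions called in all 4 fusion lists one of 5.64. Median width was 551.5 bp in gained regions, 656 bp in the rest of the list and 1321 bp in regions called in all 4. The widest gained region was 3380 bp, inside SKAP2, an adaptor protein gene, and none passed 5 kb, while 1205 regions of the rest did. A single summit was called in 75.3% of gained regions, against 59.4% of the rest. In the 12 h list, 1165 members (76.8%) had a −log10 q of at least 5, against 79.2% of the rest. Regions called at 12 h only were weaker and narrower still, with a median fold of 3.98 and a median width of 407 bp.

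**Figure D1:**
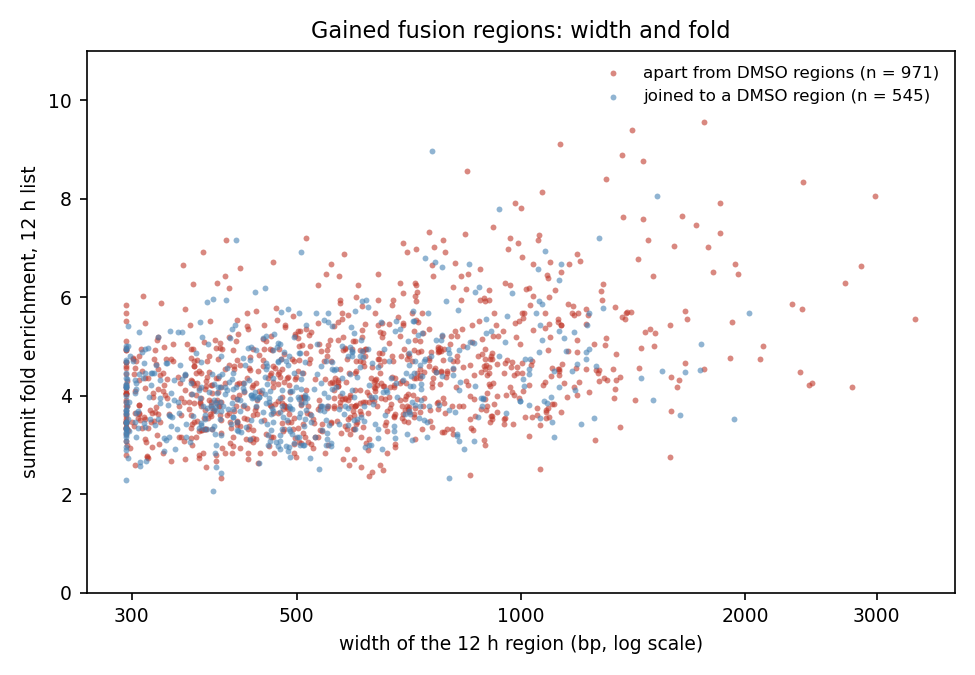
Summit fold enrichment in the 12 h list against the width of the 12 h region (bp, log scale) for each of the 1516 gained regions, coloured by whether a 24 or 48 h region joined the site to a DMSO region. Regions joined to a DMSO region are 295 to 2020 bp wide and the others 295 to 3380 bp, and no fold passes 9.56.

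A region called at 24 or 48 h may overlap a member without peaking in it. A 24 h summit lay inside the 12 h region in 1131 members (74.6%) and a 48 h summit in 1116 (73.6%), and 891 members (58.8%) held both. The strongest such summits had median folds of 4.32 in the 24 h list and 4.45 in the 48 h list. Only these inside folds are given below for single members at 24 and 48 h. The others had a later region whose summits all lay outside. At the limit of the rule, 3 members abutted a DMSO region, such as one on chromosome 2 (9003086 to 9003754), and 159 members lay under 100 bases from one. A 12 h region on chromosome 20 (48475524 to 48476216) was left out for 1 bp of DMSO overlap, as 1 of 219 with under 100 bases. On chromosome 3 (76739787 to 76740202) a member met a later region by 1 bp, and 203 members rested on under 100 bases.

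Most gained regions sat beside a site already called in DMSO. The gap to the nearest DMSO fusion region was under 1 kb for 853 members (56.3%), 1 to 5 kb for 323 (21.3%), 5 to 50 kb for 219 (14.4%) and 50 kb or more for 121 (7.98%). For 545 members (35.9%) the 24 or 48 h region that covered the member also covered a DMSO region, so that both formed 1 called region at that time. The other 971 (64.1%) were apart from every DMSO region in all 3 lists. This split was made after the data had been seen. The DMSO regions nearest to members within 5 kb were 1105 distinct regions, with a median width of 705 bp, against 675 bp in the DMSO list.

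The 12 h list as a whole shows how often calls came and went. A share of 36.1% of its regions, 10324, overlapped no DMSO fusion region. Of these, 5916 (57.3%) were called at 12 h only, 1689 (16.4%) also at 48 h but not 24 h, 1203 (11.7%) also at 24 h but not 48 h, and 1516 (14.7%) at both. When the 4 fusion lists were joined into 35384 regions, 971 were missing from DMSO alone. Comparable numbers were missing from 1 WA-68 list alone, 733 from 12 h, 1292 from 24 h and 830 from 48 h. The number missing from DMSO thus lay between those missing from single WA-68 lists. Regions in all 4 lists numbered 9291.

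GLTSCR1 was called over few gained regions, and over all members at close to the same share in every list. The lists differed in extent, from 18037 regions over 16.8 Mb in DMSO to 13677 regions over 8.55 Mb at 48 h. With GLTSCR1 lists of equal length the DMSO share was 10.4% and the 48 h share 11.5%. Covered length was not matched, and its part in the shares and differences below was not tested. The DMSO list overlapped 194 members (12.8%, exact 95% interval 11.2 to 14.6) and the 12 h list 206 (13.6%, 11.9 to 15.4). The 24 h list overlapped 182 (12.0%, 10.4 to 13.7), the 48 h list 175 (11.5%, 9.98 to 13.3) and the 96 h list 173 (11.4%, 9.85 to 13.1). Across the whole 12 h fusion list the shares were 29.3%, 24.2%, 22.9%, 22.5% and 24.3% at DMSO, 12, 24, 48 and 96 h. The 5 intervals of the members overlap one another, and each lies below its share of the whole list. Regions called in all 4 fusion lists had GLTSCR1 in 44.8% in DMSO and 35.6, 37.1, 38.0 and 39.9% at 12, 24, 48 and 96 h. Regions called at 12 h only had 10.55% in DMSO and 11.7, 6.93, 5.43 and 7.42% at those times. Intervals here and below cover counting error only, and neighbouring regions are not independent.

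**Figure D2:**
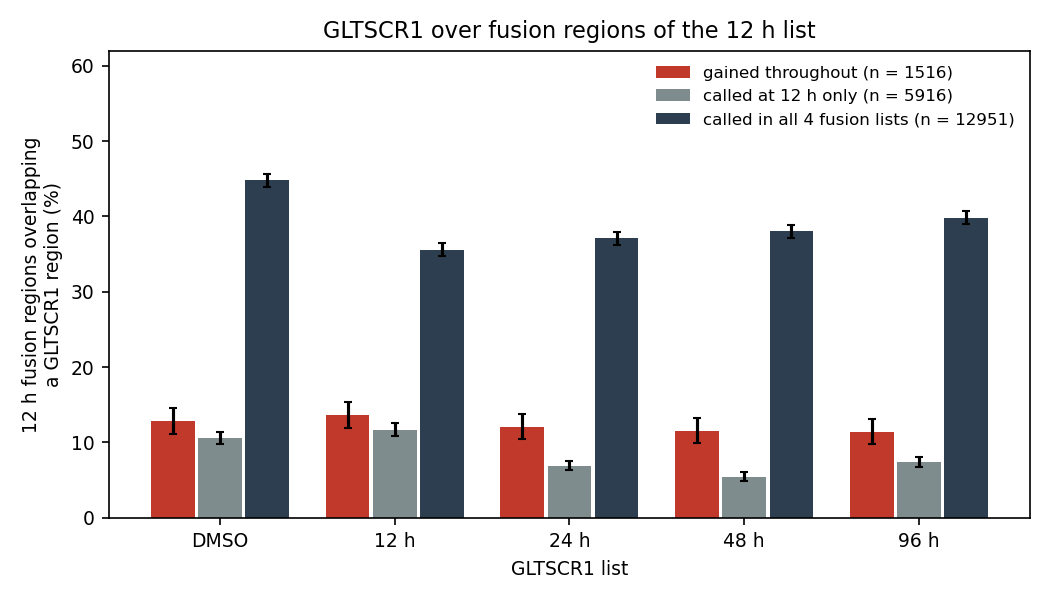
Share of 12 h fusion regions that overlapped a GLTSCR1 region in each of the 5 GLTSCR1 lists, for gained regions, regions called at 12 h only and regions called in all 4 fusion lists. Bars are percentages and error bars are exact 95% intervals of counting error. Gained regions stay between 11.4 and 13.6%, with regions called in all 4 lists between 35.6 and 44.8%.

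Fold and width differ between members and the rest, so the shares were also set against other 12 h regions in the same decile of fold. Those other regions include ones that overlap a DMSO fusion region, which the rule bars from members, so the differences partly describe the choice of members. No difference at like fold was taken against regions called at 12 h only. Their unmatched shares, given above, were below the members' share in every GLTSCR1 list, with overlapping intervals in DMSO and at 12 h. Gained regions then had 12.8% in DMSO against 24.6%, a difference of -11.8 points (95% interval -13.5 to -10.01). The 12 h list gave a difference of -5.04 points (95% interval from -6.83 up to -3.26) and the 24 h list one of -5.01 (from -6.71 up to -3.31). The 48 h list gave -4.94 (from -6.61 up to -3.27) and the 96 h list -6.94 (from -8.61 up to -5.28). With 3 classes of width added the differences were -10.4, -4.08, -3.72, -3.55 and -5.55 points for DMSO, 12, 24, 48 and 96 h. When GLTSCR1 counted only with its strongest summit within 250 bp of the fusion summit, they shrank to -3.89 points in DMSO (from -5.12 up to -2.65) and -1.85 at 96 h (from -3.18 up to -0.52). The 12 h list then gave -1.15 (from -2.59 up to 0.30), the 24 h list -0.85 (from -2.18 up to 0.47) and the 48 h list -0.69 (from -2.04 up to 0.66). At 12, 24 and 48 h these intervals include no difference.

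The regions missing from 1 list were also compared with each other. GLTSCR1 in DMSO lay over 135 of the 971 joined regions missing from DMSO alone (13.9%, 11.8 to 16.2). It lay over 33.7% (30.3 to 37.2) of those missing from 12 h alone, 32.9% (30.3 to 35.5) of those missing from 24 h alone and 29.9% (26.8 to 33.1) of those missing from 48 h alone. Joined regions in all 4 fusion lists had 52.9%. At 48 h the GLTSCR1 share was 14.4% (12.3 to 16.8) where DMSO was missing and 15.4% (13.0 to 18.1) where 48 h was missing, and these intervals overlap. It was 20.1% (17.2 to 23.1) where 12 h was missing and 22.4% (20.2 to 24.8) where 24 h was missing, above the interval where DMSO was missing. In the GLTSCR1 list of the same time as the missing fusion list, shares were 13.9% for DMSO, 22.1% for 12 h, 21.8% for 24 h and 15.4% for 48 h.

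**Figure D3:**
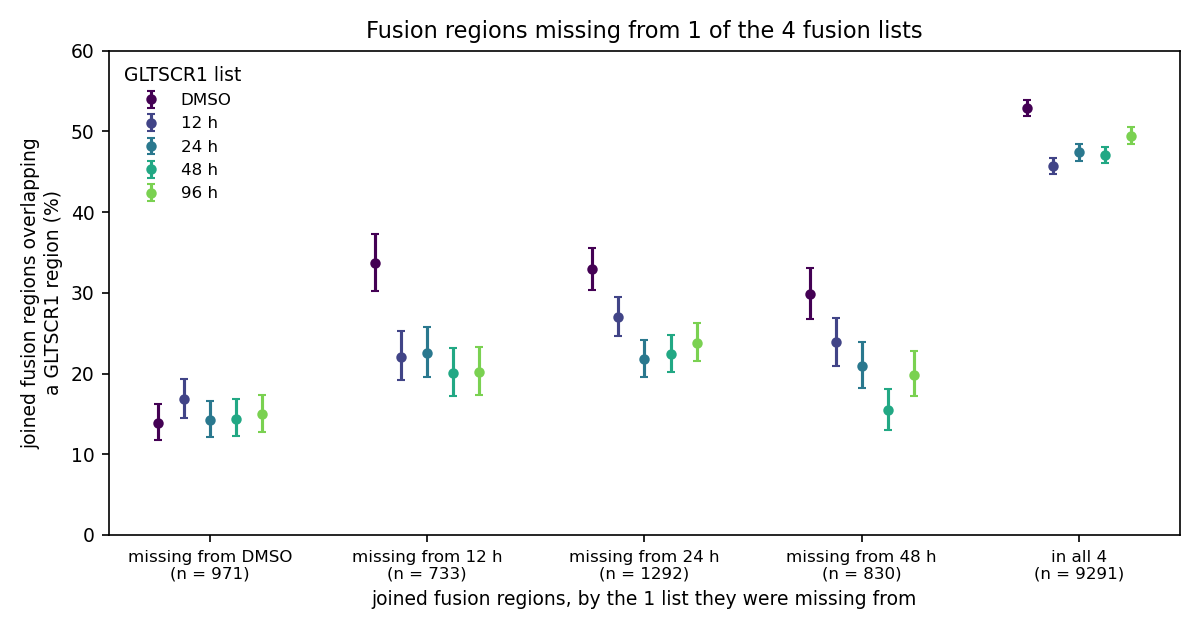
Share of joined fusion regions that overlapped a GLTSCR1 region in each of the 5 GLTSCR1 lists, by the 1 fusion list they were missing from, with regions in all 4 lists at the right. Points are percentages and bars exact 95% intervals of counting error. Regions missing from DMSO have 13.9 to 16.8% in every GLTSCR1 list, while those missing from a WA-68 list have 29.9 to 33.7% in the DMSO list.

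No GLTSCR1 region was called in any of the 5 lists over 1142 of the 1516 members (75.3%, 73.1 to 77.5), against 59.7% of the 12 h list. Of the other 374, 131 had GLTSCR1 in 1 list, 80 in 2, 59 in 3, 58 in 4 and 46 in all 5. Those 46 are 3.03% of members (2.23 to 4.03), against 12.5% of the list. GLTSCR1 was called in all 4 WA-68 lists and not in DMSO over 33 members (2.18%, 1.503 to 3.04), against 1.33% of the list. It was called in DMSO alone over 43 (2.84%, 2.06 to 3.802), against 4.80% of the list. The interval of those 33 lies above the list's share, and that of the 43 lies below it. Regions called in all 4 fusion lists had 1.64 and 5.73% for these 2 patterns, and regions called at 12 h only 0.963 and 2.79%. The 1.64% and the 2.79% lie inside the members' intervals, so neither share is particular to the gained regions.

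GLTSCR1 and gene ends were most frequent among members 50 kb or more from a DMSO fusion site. In the DMSO GLTSCR1 list the share was 12.8% (10.6 to 15.2) for members under 1 kb from a DMSO fusion region. It was 5.88% (3.58 to 9.03) at 1 to 5 kb, 16.4% (11.8 to 22.02) at 5 to 50 kb and 24.8% (17.4 to 33.5) at 50 kb or more. Over the same steps it was 10.3, 9.91, 19.2 and 36.4% at 12 h and 9.38, 8.36, 19.2 and 27.3% at 24 h. It was 9.03, 9.91, 16.0 and 25.6% at 48 h and 9.14, 8.36, 16.4 and 26.4% at 96 h. The share at a gene end was 16.3, 6.81, 20.1 and 35.5%. Median 12 h fold changed little, at 4.16, 4.26, 4.47 and 4.35. The part of gene ends in the GLTSCR1 shares was not tested. Regions called at 12 h only differed by distance in the same direction, so the pattern is not one of the gained regions alone. At 5 kb or more and under 5 kb, GLTSCR1 in DMSO lay over 19.4 and 10.9% of members and over 15.7 and 7.10% of regions called at 12 h only. GLTSCR1 at 12 h lay over 25.3 and 10.2% of members and over 19.9 and 6.23% of regions called at 12 h only. The gene-end shares were 25.6 and 13.7% of members and 28.9 and 7.27% of regions called at 12 h only.

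**Figure D4:**
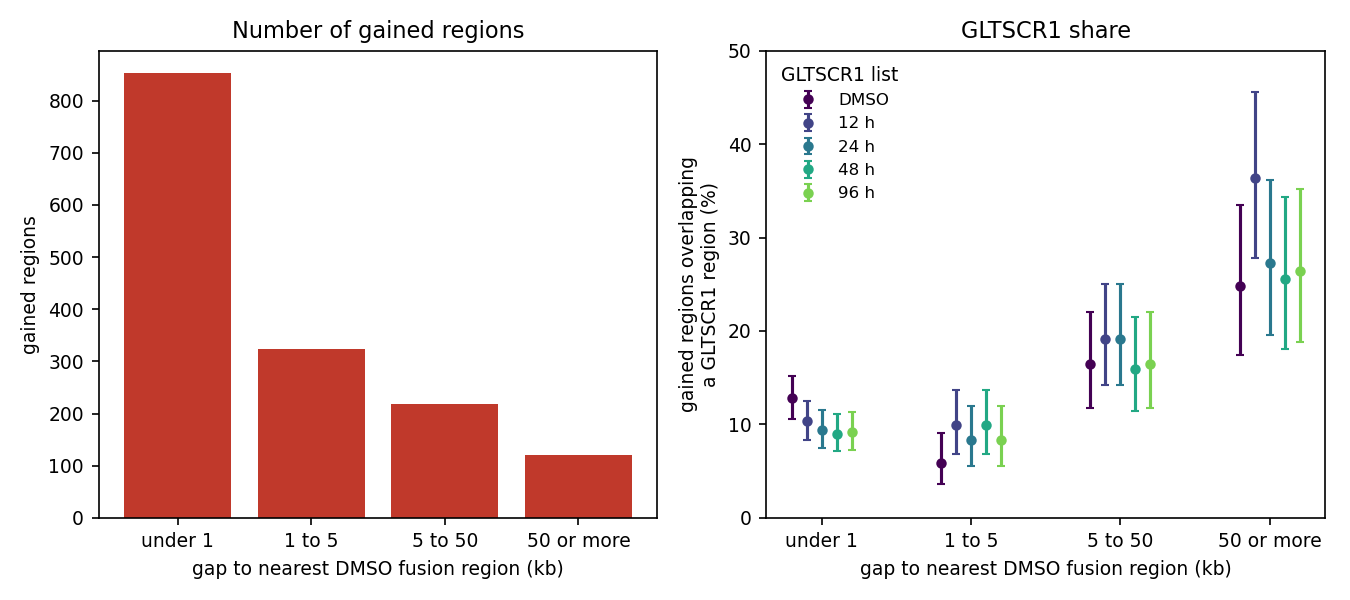
Left, number of gained regions by gap to the nearest DMSO fusion region (kb); right, share of them overlapping a GLTSCR1 region in each of the 5 GLTSCR1 lists, with exact 95% intervals of counting error. Numbers fall with the gap (853, 323, 219 and 121), and the GLTSCR1 share is highest at 50 kb or more (24.8 to 36.4%).

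By place, 248 members (16.4%, 14.5 to 18.3) touched a gene end, a window of 1 kb to each side of the start or end of a protein-coding gene's span. A further 607 (40.0%) lay inside a span and 661 (43.6%) outside all spans. The rest of the 12 h list had 16.0, 41.3 and 42.6%, each inside the exact 95% interval of the members' share. Members at gene ends had GLTSCR1 in 27.4% (21.97 to 33.4) in DMSO and in 28.6, 13.7, 14.5 and 15.3% at 12, 24, 48 and 96 h. Inside spans the shares were 9.88% in DMSO and 11.7, 10.7, 9.88 and 10.7% later, and outside spans 9.98% and 9.68, 12.6, 12.0 and 10.6%. At gene ends the intervals of DMSO and 12 h (23.1 to 34.7) lay above that of 24 h (9.68 to 18.6), so the near-constant share over all members did not hold there. In the rest of the list, gene ends had 48.1% in DMSO and 39.7, 26.8, 27.6 and 31.0% later. No GLTSCR1 list covered 61.7% of members at gene ends, 77.3% inside spans and 78.7% outside. In the rest of the list these shares were 41.0, 62.1 and 62.3%.

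A gained region lay at an end of 254 genes. The rule for named regions ranked members by their mean percentile rank by fold over the 12, 24 and 48 h lists, in which a wide later region lends its strongest summit to the member. FGF4, a fibroblast growth factor gene, had its higher-ranked member on chromosome 11 (69774236 to 69774758), with folds of 5.29 at 12 h, 6.94 at 24 h and 6.35 at 48 h. A second member (69775011 to 69775727) lay beside it, with folds of 4.93, 4.65 and 5.65, and both were over 40 kb from any DMSO region, at 41542 and 40573 bp. NID2, a basement membrane protein gene on chromosome 14 (52067193 to 52068283), had 5.997, 5.23 and 7.36 and lay 15 bp from a DMSO region. FOXL3, a forkhead gene on chromosome 7 (292069 to 293002), had 7.79, 6.57 and 5.27. DIP2C, on chromosome 10 (689848 to 690970), had 6.34, 5.08 and 6.30. These 5 regions held a summit in every WA-68 fusion list.

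PPP2R2C had a region on chromosome 4 (6563999 to 6564372) with a fold of 6.92 at 12 h and 5.42 at 48 h, 108794 bp from the nearest DMSO region. Its 24 h region had no summit inside. The region beside METRN, which encodes a secreted factor of the nervous system, and ANTKMT lay on chromosome 16 (720061 to 720827) with 6.72 at 12 h and 3.58 at 24 h. It was 2 bp from a DMSO region and had no 48 h summit inside. SOX7, a transcription factor gene, had 4.88 at 12 h and 4.25 at 48 h, and HTRA3, a serine protease gene, had 3.97, 3.55 and 7.52 at 12, 24 and 48 h. The regions at CKB, the brain creatine kinase gene (4.80 at 12 h), and FAM163B (3.96 at 12 h) held no summit of either later list. SOX7, HTRA3, CKB and FAM163B were all joined to a DMSO region, as were the regions at FOXL3, DIP2C and METRN. Those at FGF4, NID2 and PPP2R2C were not.

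Inside gene spans the highest-ranked members lay in LY75, an endocytic receptor gene (12 h fold 5.80), UVSSA, a gene of transcription-coupled repair (7.20), ZFP64, a zinc finger gene (5.61), MGMT, a DNA repair gene (5.27), ATP11A, a lipid flippase gene (7.58), and TCF12, a basic helix-loop-helix factor gene (5.20). In ATP11A, on chromosome 13 (112771711 to 112773165), the inside folds were 7.80 at 24 h and 5.60 at 48 h, and the member was the single one of these 6 not joined to a DMSO region. The LY75 member held no later summit. Outside spans the first 6 had MN1 (348 kb), MGMT (141 kb), SRSF1 (17.0 kb), HOXB1 (33.1 kb), FOXQ1 (1.04 kb) and DLL1 (101 kb) as nearest genes, with 12 h folds from 4.74 to 6.95, and all 6 were joined to a DMSO region. The member near FOXQ1 had 5.87, 6.48 and 6.82 at 12, 24 and 48 h. The widest members were those in SKAP2 (5.55, 4.38 and 5.50 over 3380 bp), 545 kb from FAM174A, the nearest gene (8.05, 3.39 and 5.40 over 2980 bp), and 218 kb from EEA1 (6.63, 4.65 and 7.95 over 2859 bp), and none was joined to a DMSO region.

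Members with GLTSCR1 in all 5 lists included 1 inside DHH, which encodes the ligand Desert hedgehog, on chromosome 12 (49091704 to 49092485). Its fusion folds were 6.60, 4.22 and 6.02 at 12, 24 and 48 h. The GLTSCR1 folds there were 3.37 in DMSO and 14.0, 8.74, 22.4 and 9.93 at 12, 24, 48 and 96 h, each within its own list. A member 15.5 kb from HHAT, which encodes the enzyme that palmitoylates hedgehog ligands, had fusion folds of 7.03, 5.48 and 5.70. BCOR, a Polycomb complex gene, held one with fusion folds of 5.10, 7.01 and 5.43 and GLTSCR1 folds of 12.6 in DMSO and 12.5, 8.31, 6.19 and 6.997 later. The others named lay 10.9 kb from YWHAE, 77.7 kb from NDUFA10 and at NR3C1. The members at DHH, BCOR and NR3C1 and the one nearest to NDUFA10 were joined to a DMSO region. GLTSCR1 folds at NR3C1 were 5.81 in DMSO and 7.19, 7.20, 7.56 and 8.16 at 12, 24, 48 and 96 h. Folds of different lists show no rise or fall.

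Among the 33 members with GLTSCR1 in every WA-68 list and not in DMSO, the first 6 lay in TCF12, ALDH1A2, DRAXIN and AATF, and 353 kb from MAP3K7 and 46.6 kb from SELENOK, the nearest genes. ALDH1A2 makes retinoic acid, and its member on chromosome 15 (57969421 to 57970539) had fusion folds of 5.49, 6.26 and 6.52 with GLTSCR1 folds of 8.47, 7.11, 5.23 and 6.51 at 12, 24, 48 and 96 h. DRAXIN encodes a secreted axon guidance protein. Its member on chromosome 1 (11719267 to 11720070) had fusion folds of 5.22, 5.36 and 5.88 and GLTSCR1 folds of 8.24, 11.1, 11.9 and 9.69. The member nearest to SELENOK lay 181814 bp from the nearest DMSO fusion region, with GLTSCR1 folds of 8.77, 9.55, 16.8 and 16.0. At AATF, a transcription cofactor gene, the fusion folds were 4.74, 9.63 and 4.47 and the DMSO gap was 58330 bp.

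Where GLTSCR1 was called over a member, its region was above the middle of its own list by fold, at the median. The strongest GLTSCR1 region over each member was taken. Other 12 h fusion regions were not compared, so these values set no trait of gained regions apart. Median folds at members were 5.30 in DMSO and 5.53, 5.31, 6.08 and 5.96 at 12, 24, 48 and 96 h. These medians stood at percentile ranks 57.0, 64.2, 60.8, 70.8 and 70.1 of their lists, where 100 is the strongest. The GLTSCR1 summit lay within 250 bp of the 12 h fusion summit in 43.8% of these members in DMSO, and in 62.1, 58.2, 62.9 and 61.3% at 12, 24, 48 and 96 h.

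Across 18 gene lists, members were compared with all protein-coding genes, of which 1.27% had a gained region at an end and 3.34% at an end or in the span. Lists were chosen with earlier results known, and the counts carry no test. Of 39 HOX genes, 0 had one at an end and 2, HOXA3 and HOXA13, in the span, whereas 35 had some 12 h fusion region at an end. Forkhead genes had 5 of 51 at an end (FOXC2, FOXD4L4, FOXL2, FOXL3 and FOXP4), and 27 had some 12 h region at an end. Over all protein-coding genes 18.6% had some 12 h region at an end, so the forkhead list also stood above all genes in fusion regions of any kind. FOXD4L4 belongs to a near-identical family, so its reads may be shared with its copies. SOX, PAX, GATA and T-box genes had 1 of 47 at an end and 6 at an end or in the span, among them GATA4 (6.51, 5.84 and 5.98 at 12, 24 and 48 h) and PAX7. FGF ligands had 2 of 22, FGF4 and FGF9, and 9 had some 12 h region at an end. WNT ligands had 4 of 19 counting spans (WNT16, WNT9A, WNT3 and WNT3A), and 15 had some 12 h region at an end or in the span. Collagen chain genes had 6 of 44 and potassium channel genes 10 of 95 counting spans, and cadherins and protocadherins 4 of 89. Some 12 h region lay at an end or in the span of 78.9% of WNT, 56.8% of collagen and 35.8% of potassium channel genes. The share was 20.2% for cadherins and protocadherins and 23.9% for all protein-coding genes. The WNT, collagen and potassium channel lists thus also stood above all genes in fusion regions of any kind.

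Among lists tied to chromatin and to the fusion, again counting ends and spans, BAF, PBAF and GBAF subunits had 1 of 28 (3.57%), in ARID1B, with folds of 3.65, 3.51 and 2.91 at 12, 24 and 48 h. Polycomb genes had 2 of 34 (5.88%), BCOR and JARID2. Of 20 fusion-linked synovial sarcoma genes, 2 held one in the span, BCL2 (2.72 at 12 h) and PAX7 (3.70 at 12 h), while 15 had some 12 h region at an end. AP-1, EGR and KLF genes had 3 of 30, KLF4, KLF10 and KLF12, while 11 had some 12 h region at an end. These are small counts beside the 3.34% of all protein-coding genes. Some 12 h region lay at an end or in the span of 42.9% of the subunit genes and 58.8% of the Polycomb genes, against 23.9% of all protein-coding genes. Of BMP and GDF ligands 1 of 21 (BMP7), of glutamate and GABA receptor genes 3 of 41 (GRIN1, GRM4 and GRM5), of the TNF receptor superfamily 1 of 21 (TNFRSF11A) and of PP2A regulatory subunits 1 of 14 (PPP2R2C) held one. ZNF genes had 11 of 509 (2.16%), and none of 80 ribosomal protein genes had a gained region, although 26 had a 12 h fusion region at an end.

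Gained regions also lay close together in certain stretches of chromosome, which were looked for after the data had been seen. When members within 100 kb of each other were grouped, 957 loci resulted. Of these, 686 held 1 member, 271 held several with 830 members between them, and 32 held at least 5, with 254 members. The locus with the most members, 20 over 479 kb, lay by TSNARE1 on chromosome 8 (141562475 to 142041588), where the 12 h list had 138 regions and the DMSO list 99. Next came 14 from KIF26A to ADSS1 and INF2 on chromosome 14, 13 over CFAP46 and ADGRA1 on chromosome 10 and 12 around UNCX and MICALL2 on chromosome 7. A stretch of mucin genes (MUC2, MUC5AC and MUC5B) on chromosome 11 held 9. All these stretches already carried many DMSO fusion regions, from 28 in the mucin stretch to 99 by TSNARE1. They also held many regions of the 12 h list, from 41 in the mucin stretch to 138 by TSNARE1. Other 12 h regions were not grouped in this way, so the part of their density in these loci was not tested. GLTSCR1 was called in some list over 1 of the 20 members by TSNARE1 and over none of the 9 in the mucin stretch, against 24.7% of all members. Loci of 9 members also lay by FBRSL1 and P2RX2 on chromosome 12, with GLTSCR1 over 4 of the 9, and by TTLL8 and MAPK11 on chromosome 22, with GLTSCR1 over 1. The dense loci thus differed in GLTSCR1, and counts this small carry no test.

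The other loci of 10 or 11 members lay by TNRC6C on chromosome 17 (11), over CBFA2T3 and ACSF3 on chromosome 16 (10) and from CRYBA4 to MN1 on chromosome 22 (10). Of those with 8 members, 1 lay over the transporter genes SLC12A7, SLC6A19, SLC6A18 and SLC6A3 on chromosome 5, with 12 h folds from 2.80 to 4.34 and no GLTSCR1. Around NKX2-1, NKX2-8 and PAX9, homeodomain and paired-box factor genes on chromosome 14 (36448281 to 36712664), 8 members lay among 39 regions of the 12 h list and 20 of the DMSO list, and 5 of the 8 had GLTSCR1 in some list. One of them, at 36604796 to 36605483, had fusion folds of 6.30, 4.11 and 4.11 at 12, 24 and 48 h and GLTSCR1 in all 4 WA-68 lists and not in DMSO, with folds of 9.97, 6.95, 7.88 and 12.8. The NKX2-8 promoter printed above lies wholly within another (36582542 to 36583310), with folds of 4.48, 7.81 and 5.60. That member was joined to a DMSO region. Around FOXF1 and FOXC2 on chromosome 16, 8 members lay in 238 kb, with 12 h folds from 2.98 to 7.91, and 3 had GLTSCR1 in some list. At LHX1 and MRM1 on chromosome 17, 8 members had 12 h folds from 3.52 to 5.68, and none had GLTSCR1.

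By chromosome, members were 10.8% (8.31 to 13.7) of the 12 h fusion regions of chromosome 22, 59 of 547, and 3.23% (1.96 to 5.00) of those of chromosome X. The intervals of chromosomes 14 (7.04%, 5.52 to 8.81), 17 (7.16%, 5.84 to 8.68), 20 (6.94%, 5.36 to 8.80) and 22 lay above the share of the whole list, 5.30%. Those of chromosomes 2 (4.28%, 3.44 to 5.26), 4 (3.81%, 2.92 to 4.86) and X lay below it. Chromosome 22 held 1.83% of the DMSO list, 1.91% of the 12 h list, 2.25% of the 24 h list and 1.996% of the 48 h list. The part of list size per chromosome, and of gene or GC content, was not tested.

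**Figure D5:**
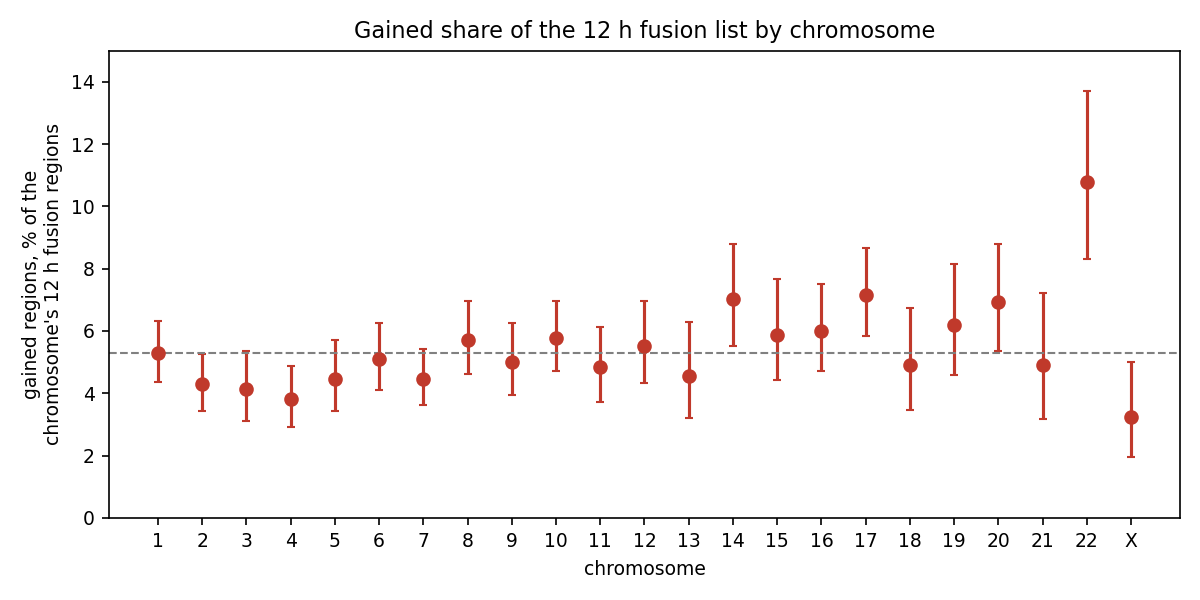
Gained regions as a share of each chromosome's 12 h fusion regions, for chromosomes 1 to 22 and X; points are percentages, bars exact 95% intervals of counting error and the dashed line the share over the plotted chromosomes. Chromosome 22 is highest at 10.8% and chromosome X lowest at 3.23%.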

How the data were processed

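The data were 9 deposited peak lists, 1 per ChIP-seq library of HS-SY-II cells, 1 for each antibody and time. Per the submitters' processing notes the build was GRCh38 and the tools included BWA, Picard, SAMtools and the peak caller MACS2, and also cutadapt, Trim Galore, FastQC, bcl2fastq and deepTools. Their versions, and the settings of each, are not given here. In each deposited list the authors gave a summit's fold enrichment, a ratio on a linear scale, beside its −log10 q and −log10 p. No list held a −log10 q under 3.00. Rows with the same coordinates were collapsed to 1 region that carried its strongest summit. Read depth is unknown from peak lists, and a region not called was below the caller's threshold. Folds were compared within 1 list only.

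Regions overlapped when they had 1 bp or more in common. Intervals of shares are 95% Clopper-Pearson intervals. Differences at like fold were averaged over the members' deciles of 12 h fold, with normal 95% intervals. Gene spans came from RefSeq (GRCh38.p14), in which the table used gives no strand, so both ends of each span were used. Named regions were the highest by mean percentile rank of fold in the 12, 24 and 48 h lists: 10 at gene ends, 6 inside spans, 6 outside, 6 in each of 3 GLTSCR1 classes (all 5 lists, the 4 WA-68 lists and not DMSO, none), the 3 widest and up to 3 per gene list. The loci, the shares by chromosome and the split by joining were chosen after their values were seen. The members and gene lists were chosen with earlier results of these data known. The scripts used Python 3.11.15, NumPy 2.4.6, pandas 2.3.3 and SciPy 1.17.1, and overlap, gap and stratified-difference code was tested on simulated data. The alternatives tried are described with their values in the closing section.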

Additional observations from a re-analysis of the deposited data

How the results depend on the processing

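The number of gained regions depended on how the rule was drawn. Against 1516, it was 784 with a −log10 q of at least 5 asked of the 3 WA-68 lists, 663 with no DMSO region within 1 kb, 340 with none within 5 kb and 997 with regions within 500 bp merged. Leaving out 1 WA-68 list gave 2719 to 3205 (3205 without 24 h, 2719 without 48 h and 2806 without 12 h). Among alternatives chosen after seeing the data, 971 were not joined to a DMSO region and 891 held both later summits. The remaining 7 settings stayed within 1.5 times.

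GLTSCR1 shares are given for DMSO, 12, 24, 48 and 96 h and then none. They were 10.1, 11.5, 8.91, 9.37, 9.04 and 79.6% with an overlap of 50% of the shorter region, 5.87, 8.44, 6.99, 7.32, 7.06 and 83.2% with summits within 250 bp, and 19.4, 25.3, 22.1, 19.4, 20.0 and 61.8% with no DMSO region within 5 kb. With −log10 q of at least 5, 12 h had 11.8% and none 77.5%. With GLTSCR1 lists of equal length, DMSO had 10.4% and none 78.0%. With both later summits inside (chosen after seeing the data), 12, 24 and 48 h had 15.6, 14.3 and 14.3% and none 72.6%. Differences at like fold without strata were -17.5, -11.2, -11.5, -11.5 and -13.7 points, and with summits within 250 bp -3.89, -1.15, -0.85, -0.69 and -1.85. No difference changed sign. The gene-end share was 11.6% at 500 bp, 25.9% at 3 kb (23.5% in the rest of the list) and 25.6% with no DMSO region within 5 kb, where the rest of the list had 29.0%. The other 52 of 100 values stayed within 1.5 times the count or inside the first interval, and the causes were not tested. No paired analysis was possible because each group held 1 library and no comparison between libraries was tested. Peak lists give no depth, so a missing region cannot be set against coverage.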

Other observations

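Other values belong in no comparison above. The hairpins of MIR4710 on chromosome 14 and MIR4651 on chromosome 7 each lay under a gained region. The 1516 members were covered by 1484 distinct 24 h regions and 1477 distinct 48 h regions, taking the strongest over each member, so some neighbouring members shared 1 later region. In 483 members (31.9%) the strongest summits of both later regions lay within 250 bp of the 12 h summit.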
